A study of Mus musculus with 6 samples.

Results

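Expression of the H19-Igf2 locus and of the insulin-like growth factor (IGF) system was examined in cultured mouse embryonic heart cells after knockdown of the DNA methyltransferase DNMT1. The genes were chosen by name: the imprinted pair H19 and Igf2, the ligand Igf1, the receptors Igf1r and Igf2r, the binding proteins Igfbp2, Igfbp3, Igfbp4 and Igfbp5, and the RNA-binding protein Igf2bp1. Each symbol matched 1 Ensembl gene of GRCm38, so that 10 of the 43629 genes in the count tables were followed. Ventricles of CD-1 mouse embryos at embryonic day 13.5 were pooled by litter, freed of quickly adhering cells by pre-plating, cultured for 48 h and then transfected with 12 nM siRNA. The 3 control cultures received a commercial negative control siRNA, and the other 3 received a pool of 4 siRNAs against Dnmt1. After 72 h, cells carrying VCAM1, a surface protein of embryonic cardiomyocytes, were collected with magnetic beads, and their poly(A) RNA was sequenced. All 6 cultures therefore share strain, stage, transfection and sorting, and the cells are a short-term, transiently transfected culture rather than intact heart. The sample titles name DNMT1 siRNA, whereas a treatment tag of the same samples names DNMT3a siRNA, and the titles were followed. The labels do not say whether the cultures came from separate litters, so p-values measure only the spread between these samples, which may be technical.

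IGF1 and IGF2 are secreted growth factors that act through the receptor tyrosine kinase IGF1R, while IGF2R carries IGF2 to the lysosome for degradation, and the IGF binding proteins hold the ligands outside the cell and set how much of them reaches the receptor. H19, a non-coding RNA, is transcribed from the maternal chromosome and Igf2 from the paternal one. An imprinting control region between the genes is methylated on the paternal copy, and where it is not methylated it binds CTCF, which keeps shared enhancers from reaching Igf2. DNMT1 copies CG methylation onto the new DNA strand at replication, and IGF2 is a major growth factor of the fetal ventricle.

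The libraries held 27852412 to 35896018 reads on genes after negative siRNA and 13739561 to 16186310 after DNMT1 siRNA. Every gene of the system was covered by at least 435 reads in each library, where the counting error is 4.79% of the value. Values below are normalized counts, which are reads scaled to a common effective library size, and a gene was called changed when its Benjamini-Hochberg adjusted p in edgeR's quasi-likelihood test was below 0.05 and its fold change above 1.5. Of the 15470 genes tested, 4.26% were called higher and 2.23% lower after DNMT1 siRNA. Dnmt1 itself had 3446.5, 2759.5 and 2878.0 normalized counts in negative siRNA replicates 1, 2 and 3 and 772.4, 785.7 and 665.6 in DNMT1 siRNA replicates 1, 2 and 3, a residual level of 24.5% (log2 fold change -2.03, SE 0.11, adjusted p = 0.000192), whereas Dnmt3a stood at 118% of its control mean (adjusted p = 0.0919). The authors cite their earlier flow cytometry, in which the great majority of cells sorted with magnetic beads were cardiomyocytes. Markers of several cell types were present in the RNA of the sorted cells. The cardiomyocyte gene Tnnt2 was at 100.2 ± 16.6 (SD, n = 3) RPKM (reads per kilobase of exon, scaled for library size) in the control cultures and the fibroblast collagen Col1a1 at 3542 ± 905 (SD, n = 3). The collagens Col1a2 and Col3a1 had control means of 835.1 and 855.7 RPKM. The fibroblast markers outside the collagens were all below Tnnt2, with Tcf21 the highest at 78.6 RPKM. Among the other cardiomyocyte markers, Myh6 was at 110.8 RPKM and Vcam1, the next highest, at 33.5. The 8 cardiomyocyte markers summed to 2011 to 2489 CPM (counts scaled to a common library total) in the control cultures and 4125 to 4951 after DNMT1 siRNA, with 6 of 8 called higher. Of the others, Vcam1, the gene of the sorting marker, was lower in every DNMT1 siRNA culture (log2 fold change -0.26, adjusted p = 0.148). Myh7 differed by 0.20 on the log2 scale with overlapping groups. The number of cardiomyocyte markers called higher ranged from 3 without DNMT1 siRNA replicate 2 to 7 without negative siRNA replicate 2, over the alternative settings given below. The 8 fibroblast markers summed to 36082 to 55676 and then 27401 to 29238, with 3 of 8 called lower. Most of this sum came from the collagens Col1a1, Col1a2 and Col3a1, with control means of 504778, 225315 and 182395 normalized counts. Postn, the next highest fibroblast marker in normalized counts, had a control mean of 12606. Over the alternative settings given below, the number called lower ranged from 0 to 3, with 1 without negative siRNA replicate 2. The median log2 fold change of the 8 was -0.42, and that of Tcf21 was 0.0052. The 7 endothelial markers summed to 73.7 to 102 and then 196 to 208, with 3 of 7 called higher. Without Npr3, which had the largest rise and was left out after seeing the data, the other 6 summed to 56.0 to 93.4 and then 89.0 to 104, so that the groups overlapped. All 7 endothelial markers had an unadjusted p below 0.05, beside 29.2% of all genes. Of these, 1 was lower with an adjusted p below 0.05, beside 5.65% of all genes. The number called higher ranged from 1 to 6 over the alternative settings. It was 6 without negative siRNA replicate 2, beside 8.2% of all genes called in either direction. The 6 markers of the epicardium, a source of IGF2 in the embryonic heart, summed to 1609 to 1864 and then 1792 to 1880, with 0 of 6 called by edgeR, and 2 of 6 had an unadjusted p below 0.05, beside 29.2% of all genes. In such bulk samples, fewer cells of a type and less RNA per cell cannot be told apart.

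H19 lies on chromosome 7 at 142575529 to 142578143 of GRCm38 on the minus strand, with 2460 bases of exon, and Igf2 lies 72.6 kb away on the same strand at 142650766 to 142666816. The hairpin of miR-675 sits inside an H19 exon and that of miR-483 inside an Igf2 intron, and their mature sequences from RefSeq (GRCm38.p6) are shown as the small RNA products of this locus, with the seed (bases 2 to 8) in capitals. No seed was shared between them.
mmu-miR-675-5p: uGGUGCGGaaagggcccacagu
mmu-miR-675-3p: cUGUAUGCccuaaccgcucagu
mmu-miR-483-5p: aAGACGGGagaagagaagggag
mmu-miR-483-3p: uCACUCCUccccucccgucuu
Mature miRNAs carry no poly(A) tail and were not measured here. The Mir675 gene, whose 84 hairpin bases are also H19 exon, was listed with 0 reads in all 6 libraries, where a count of 0 allows up to 3 reads in a library, and reads on bases shared by both genes may have gone to neither.

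H19 had the highest mean level of the set per kilobase of exon, and it differed widely between control cultures. It had 18059.7, 62269.8 and 18372.2 normalized counts in negative siRNA replicates 1, 2 and 3, and 16701.4, 13279.0 and 13502.6 in DNMT1 siRNA replicates 1, 2 and 3. All 3 DNMT1 siRNA cultures were below all control cultures, by a small margin for control replicates 1 and 3 and a wide one for replicate 2. The log2 fold change was -1.18 (SE 0.44, 95% interval -2.20 to -0.17) and did not pass the adjusted test (edgeR's quasi-likelihood test, adjusted p = 0.12). Without negative siRNA replicate 2 it was -0.33 with an adjusted p of 0.0474, which is past the p limit but not past the fold limit. Without that culture 8.2% of the genes then tested were called in either direction and 17.6% passed the p limit alone.

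Igf2, the fetal growth factor encoded next to H19, gave 19816.2, 50067.5 and 12843.3 normalized counts in the control cultures and 13105.0, 11847.6 and 11836.1 after DNMT1 siRNA. Negative siRNA replicate 2 was again the high culture, replicate 1 was intermediate, and the groups overlapped because negative siRNA replicate 3 was below DNMT1 siRNA replicate 1. The log2 fold change was -1.17 (SE 0.42, 95% interval -2.13 to -0.21; adjusted p = 0.107). It was -0.41 without negative siRNA replicate 2 (adjusted p = 0.0927) and -1.51 without replicate 3, where Igf2 was called lower (adjusted p = 0.0305).

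The mean proportion of the imprinted pair was nearly the same in both groups. The spread between control cultures leaves room for a shift in either direction. The ratio of H19 to Igf2 reads was 0.911, 1.24 and 1.43 in the control cultures and 1.27, 1.12 and 1.14 after DNMT1 siRNA, so the DNMT1 siRNA values lay within the control range. On the log2 scale the ratio was 0.23 ± 0.33 (SD, n = 3) and 0.23 ± 0.10 (SD, n = 3), a difference of 0.0024 (exact permutation test, two-sided, p = 1.0, with 0.1 the smallest that 3 against 3 samples can give). Across the 6 cultures the log2 levels of both genes had a Pearson correlation of 0.965 and a Spearman correlation of 0.771. These values are a description only, because both genes were read in the same libraries, which differ from each other in depth and composition. Without negative siRNA replicate 2 these values were 0.633 and 0.60 over 5 cultures. The counts come from both alleles together, and allele-specific expression and methylation of the control region were not analysed here.

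**Figure D1:**
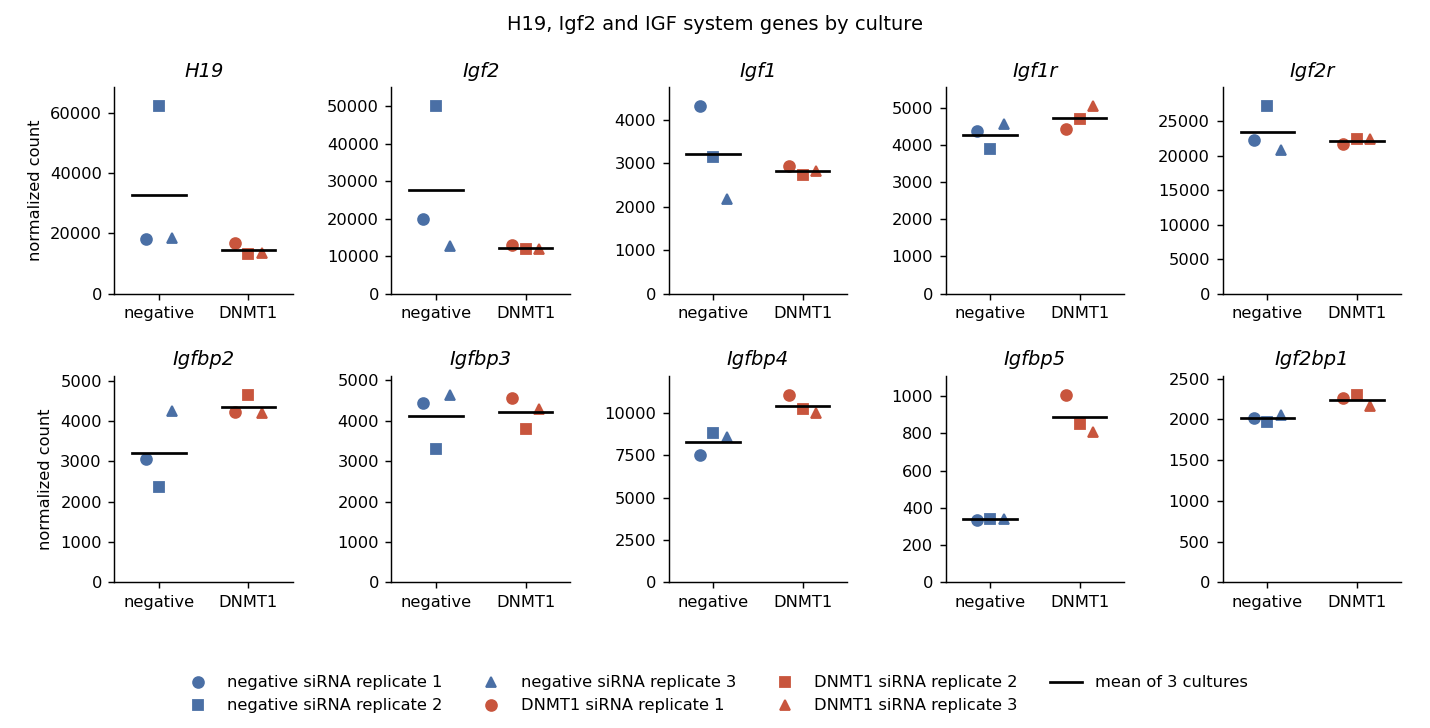
Normalized counts (linear axes from 0, a separate scale for each gene) of the 10 genes in every culture, with negative siRNA in blue, DNMT1 siRNA in red, a marker shape for each replicate number and a black line at the mean of 3 cultures. The square for negative siRNA replicate 2 stands far above the rest for H19 (62269.8) and Igf2 (50067.5), and the Igfbp5 groups are widely separated.

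Igf1, the other ligand, had 4320.6, 3143.5 and 2180.5 normalized counts in the control cultures and 2944.7, 2724.3 and 2826.1 after DNMT1 siRNA. Here negative siRNA replicate 1, not replicate 2, was the high culture, and the DNMT1 siRNA values lay between the control ones. The log2 fold change was -0.18 (SE 0.21, 95% interval -0.66 to 0.29; adjusted p = 0.593), and it was 0.089 without negative siRNA replicate 1.

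The receptors differed little. Igf1r, the signalling receptor, had 4372.0, 3885.2 and 4570.9 normalized counts in the control cultures and 4415.7, 4692.1 and 5043.9 after DNMT1 siRNA. The groups overlapped, and the log2 fold change was 0.14 (SE 0.084, 95% interval -0.05 to 0.33; adjusted p = 0.303). Igf2r, the clearance receptor, had 22286.4, 27233.8 and 20838.1 and then 21693.7, 22486.8 and 22435.7. Its control replicate 2 was the highest of the 6 values, the groups overlapped, and the log2 fold change was -0.08 (SE 0.10, 95% interval -0.32 to 0.16; adjusted p = 0.653) with all cultures and 0.042 without that culture. The intervals leave room for changes of up to 0.33 and 0.32 on the log2 scale for these receptors. Igf2r is itself imprinted, with the non-coding Airn transcribed against it from within the gene, and Airn differed by 0.33 on the log2 scale (adjusted p = 0.200).

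The binding proteins held the only called member. Igfbp5, the binding protein that associates with extracellular matrix, lies on chromosome 1 at 72857932 to 72874884 on the minus strand. It had 337.3, 342.6 and 338.3 normalized counts in the control cultures and 1007.0, 849.8 and 809.6 after DNMT1 siRNA. The groups were widely separated, and the level rose 2.62-fold (log2 fold change 1.39, SE 0.099, 95% interval 1.16 to 1.62, edgeR's quasi-likelihood test, adjusted p = 0.000546). The call held under all 14 alternative settings run, with log2 fold changes between 1.24 and 1.44. The control cultures differed by an SD of 0.83% of their mean, which is less than the counting error of at least 4.16% on their 435 to 578 reads. With Igfbp5, 1 of 10 genes of the system was called in either direction, beside 6.49% of all genes tested. By unadjusted p, 6 of 10 were below 0.05, beside 29.2% of all genes, and the median log2 fold change was 0.09 for the 10 genes and -0.0049 for all genes tested.

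Igfbp4, an inhibitory binding protein, had 7526.6, 8805.2 and 8574.1 normalized counts in the control cultures and 11070.8, 10242.7 and 9973.2 after DNMT1 siRNA. All DNMT1 siRNA values were above all control values, by 0.33 on the log2 scale (SE 0.083, 95% interval 0.14 to 0.52; adjusted p = 0.0377), which passed the p limit but not the fold limit. At the p limit alone, Igfbp4 and Igfbp5 were the 2 of 10 that were higher, and none was lower, beside 6.81% and 5.65% of all genes. The adjusted p of Igfbp4 stayed below 0.05 in 9 of 14 alternatives and rose to 0.0585 without negative siRNA replicate 1, to 0.175, 0.142 and 0.116 without DNMT1 siRNA replicates 1, 2 and 3, and to 0.0868 in a fit that also held the replicate number.

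Igfbp2, which lies 5.5 kb from Igfbp5 with the 3' ends of both genes facing each other, had 3061.3, 2359.7 and 4241.2 normalized counts in the control cultures and 4228.0, 4652.7 and 4196.7 after DNMT1 siRNA. The groups overlapped only through negative siRNA replicate 3, which was as high as the DNMT1 siRNA cultures. The log2 fold change was 0.44 (SE 0.18, 95% interval 0.02 to 0.86; adjusted p = 0.155), and without that replicate it was 0.69 and Igfbp2 was called higher (adjusted p = 0.0159). Igfbp3, the main carrier of IGF in blood, had 4426.2, 3308.2 and 4637.8 and then 4563.2, 3792.7 and 4283.4. These groups overlapped throughout, with a log2 fold change of 0.03 (SE 0.13, 95% interval -0.27 to 0.33; adjusted p = 0.899) that became -0.11 without negative siRNA replicate 2.

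Because DNMT1 acts on CG sites, the 250 bases before the annotated start are shown for the binding protein that was called (Igfbp5), the one past the p limit alone (Igfbp4) and the one with the smallest difference (Igfbp3), with CG in capitals. The sequences are from RefSeq (GRCm38.p6), where 8 of the 10 genes had a window. Igfbp5 is at chr1:72874866-72875115 on the minus strand, Igfbp4 at chr11:99040994-99041243 on the plus strand and Igfbp3 at chr11:7213924-7214173 on the minus strand.
Igfbp5: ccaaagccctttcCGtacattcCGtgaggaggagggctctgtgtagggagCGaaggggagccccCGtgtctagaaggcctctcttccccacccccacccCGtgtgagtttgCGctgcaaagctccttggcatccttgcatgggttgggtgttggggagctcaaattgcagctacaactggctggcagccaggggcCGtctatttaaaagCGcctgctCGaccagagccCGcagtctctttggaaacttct
Igfbp4: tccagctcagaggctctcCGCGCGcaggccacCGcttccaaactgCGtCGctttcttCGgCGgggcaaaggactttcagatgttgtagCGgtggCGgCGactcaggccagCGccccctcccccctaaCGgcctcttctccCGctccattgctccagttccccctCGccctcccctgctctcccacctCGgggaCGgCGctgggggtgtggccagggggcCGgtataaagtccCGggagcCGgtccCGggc
Igfbp3: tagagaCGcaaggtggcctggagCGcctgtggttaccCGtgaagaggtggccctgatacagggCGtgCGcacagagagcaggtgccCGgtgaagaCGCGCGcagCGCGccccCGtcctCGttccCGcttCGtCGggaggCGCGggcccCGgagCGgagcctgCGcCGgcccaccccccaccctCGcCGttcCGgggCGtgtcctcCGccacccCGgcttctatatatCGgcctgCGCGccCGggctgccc
The Igfbp5 window held 10 CG, the Igfbp4 window 22 and the Igfbp3 window 32, beside a median of 6 over the 32851 windows of all genes. They stood at the percentiles 62.2, 85.2 and 95.4 of these windows. The called gene had the fewest CG of the 3, which were picked by their outcome. Other members with windows, none of them called, had both fewer and more CG. Igf1 had 5, Igf2 had 1, 10, 22 and 6, Igfbp2 had 14 and 11, Igf2r had 27 and Igf1r had 42. The letters TATAAA, searched on both strands, occurred in the Igfbp4 window starting 28 bases before the start and in 12.4% of all windows, and the letters GGGCGG occurred in none of the 3 and in 32.7% of all windows. Methylation of these windows was not analysed here.

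Levels were compared between genes in RPKM. In the control cultures Igfbp2, Igfbp3 and Igfbp4 had means of 80.3, 60.7 and 86.6, whereas Igfbp5 had 2.6, so the binding protein that rose was the least abundant of these 4. After DNMT1 siRNA, Igfbp5 reached 6.82, beside 109 for Igfbp2, 62.0 for Igfbp3 and 109 for Igfbp4. Of the summed per-kilobase level of Igfbp1 to Igfbp6, Igfbp5 made up 0.94 ± 0.12% (SD, n = 3) in the control cultures and 1.94 ± 0.17% (SD, n = 3) after DNMT1 siRNA, and Igfbp4 made up 31.3 ± 4.07% and 31.0 ± 0.71%. That sum was 255.7, 257.4 and 323.9 in the control cultures and 363.2, 348.5 and 341.2 after DNMT1 siRNA, so the groups did not overlap. Igfbp7, a related protein with low affinity for IGF, was far above the others at 1897 ± 704 and 1668 ± 107 (SD, n = 3), and its groups overlapped.

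**Figure D2:**
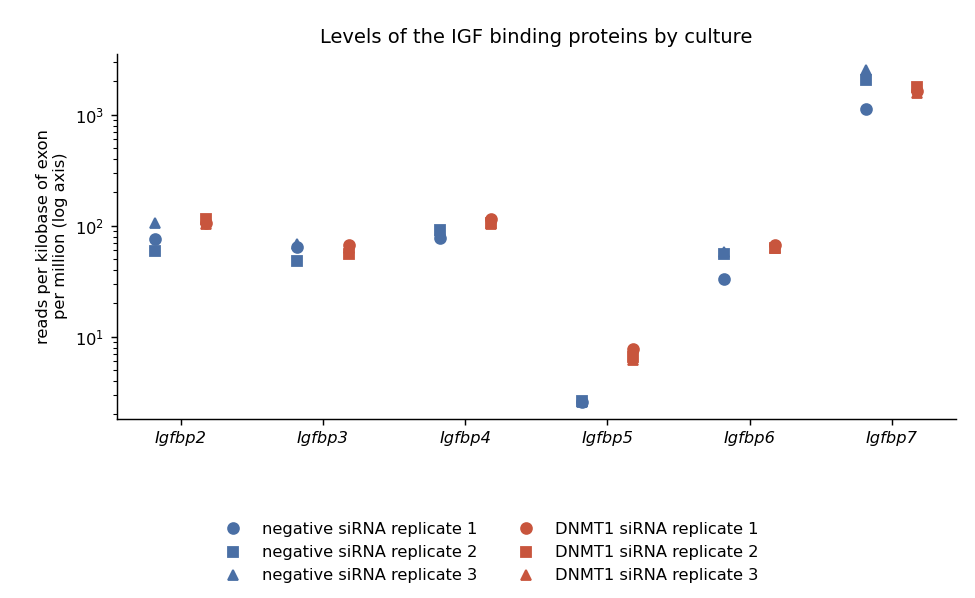
Level of the IGF binding proteins in RPKM (log axis) in every culture, with negative siRNA in blue, DNMT1 siRNA in red and a marker shape for each replicate number. Igfbp5 is the lowest of the 6 in both groups and moves from 2.59 to 2.63 in the control cultures to 6.21 to 7.72 after DNMT1 siRNA.

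Igf2bp1, an RNA-binding protein of fetal cells that binds Igf2 and H19 RNA, had 2012.7, 1972.3 and 2059.2 normalized counts in the control cultures and 2262.2, 2300.1 and 2167.0 after DNMT1 siRNA. All DNMT1 siRNA cultures were above the control cultures by a small step, with a log2 fold change of 0.16 (SE 0.061, 95% interval 0.01 to 0.30; adjusted p = 0.138). With Igfbp4, Igfbp5 and Igf2bp1 higher and H19 lower, the groups did not overlap for 4 of 10 genes, beside 36% of all genes tested (18.3% higher and 17.7% lower). The related Igf2bp3, named after its values were seen, had 1258.7, 1185.0 and 1138.4 and then 811.3, 940.2 and 961.7, a difference of -0.40 on the log2 scale (SE 0.088; adjusted p = 0.0238) within the fold limit.

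**Figure D3:**
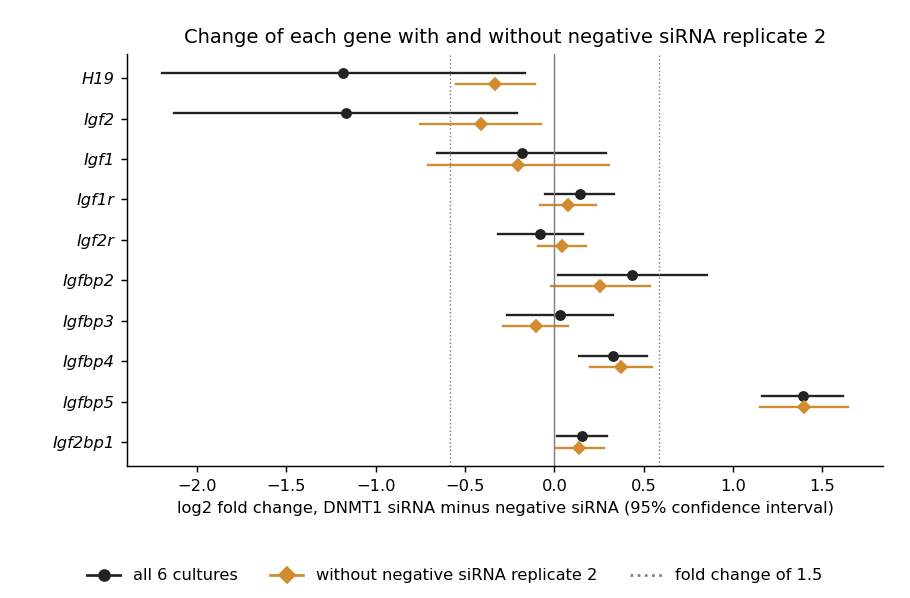
Log2 fold change (DNMT1 siRNA against negative siRNA, points) of the 10 genes from edgeR with 95% intervals (bars), for all 6 cultures in black and without negative siRNA replicate 2 in orange, and dotted lines at a fold change of 1.5. H19 and Igf2 move from -1.18 and -1.17 to -0.33 and -0.41 when that culture is left out, while Igfbp5 stays above 1.

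On the per-kilobase scale the order of the control means was H19 (615.9), Igf2 (221.9), Igf2r (116.0), Igfbp4 (86.6), Igfbp2 (80.3), Igfbp3 (60.7), Igf1 (14.9), Igf1r (11.7), Igf2bp1 (9.58) and Igfbp5 (2.6). Neighbours in this order overlapped between cultures for H19 and Igf2, Igf2 and Igf2r, Igfbp4 and Igfbp2, Igfbp2 and Igfbp3, and Igf1 and Igf1r, and they were separated at the other steps. The Igf2 level was thus above that of Igf1 in every control culture, at 159.5, 402.9 and 103.4 against 20.1, 14.6 and 10.1.

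The spread between control cultures was the main feature of H19 and Igf2. Negative siRNA replicate 2 exceeded the mean of the other control cultures 3.42-fold for H19 and 3.07-fold for Igf2. The highest control culture exceeded the lowest 3.45-fold for H19, 3.90-fold for Igf2, 1.98-fold for Igf1, 1.80-fold for Igfbp2 and 1.40-fold for Igfbp3. The remaining genes ranged from 1.02-fold for Igfbp5 to 1.31-fold for Igf2r. The SD of the log2 level between control cultures was 1.02 for H19 and 1.00 for Igf2, beside a median of 0.17 over all genes tested, at the percentiles 98.6 and 98.5. After DNMT1 siRNA these SDs were 0.18 and 0.084, beside a median of 0.098. The spread was larger in the control group for 8 of 10 genes of the system, and for 71.8% of all genes tested.

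The same culture was high in some other genes. Of all genes tested, 38.1% had their highest control value in it, and 240 (1.55%) were more than 2-fold above both other control cultures there. Of the 9 tested neighbours of H19 and Igf2, 3 were highest in it, and Ctsd, a lysosomal protease, was lowest in it, at 17471.5, 13754.8 and 17713.6 normalized counts. Its summed CPM was 55676 for the fibroblast markers, against 36082 and 38250 in the other control cultures, and 7887 for the smooth muscle markers, against 5798 and 5282. Its epicardial sum of 1609 was below their 1759 and 1864. Most of the fibroblast sum came from the collagens, and Col1a1 had 428238.4, 653662.0 and 432434.3 normalized counts in negative siRNA replicates 1, 2 and 3. Postn, the highest fibroblast marker outside the collagens in normalized counts, had 11405.5, 14078.8 and 12333.9. Among the 8 fibroblast markers, 6 were highest in negative siRNA replicate 2 of the controls. The others, Tcf21 and Dcn, were lowest there, at 3910.4, 3648.1 and 4475.2 and at 7085.5, 5576.9 and 7287.9 normalized counts. Of the 6 smooth muscle markers, 4 were highest in that culture among the controls, such as Myh11, a smooth muscle myosin, with 119.6, 680.4 and 178.9 normalized counts, and the other two, Rgs5 and Pdgfrb, were lowest there, at 127.8, 37.9 and 52.1 and at 5872.9, 5860.9 and 7317.5. The part of these markers in the H19 and Igf2 values was not tested. The genes with the most similar profile over the 6 cultures, out of 12737 compared, were Csrp1, Adprh, Rps10-ps1, Vwa1 and Vrk2 for H19 (Pearson correlation 0.992 to 0.996) and Sec24d, Tmem107, Dgat2, Wnt16 and Bambi for Igf2 (0.993 to 0.996). Vwa1, for example, had 72.4, 339.2 and 86.3 normalized counts in the control cultures and 68.4, 59.8 and 63.8 after DNMT1 siRNA, so it shares the high value of negative siRNA replicate 2. Igf2 stood at rank 100 in likeness to H19.

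**Figure D4:**
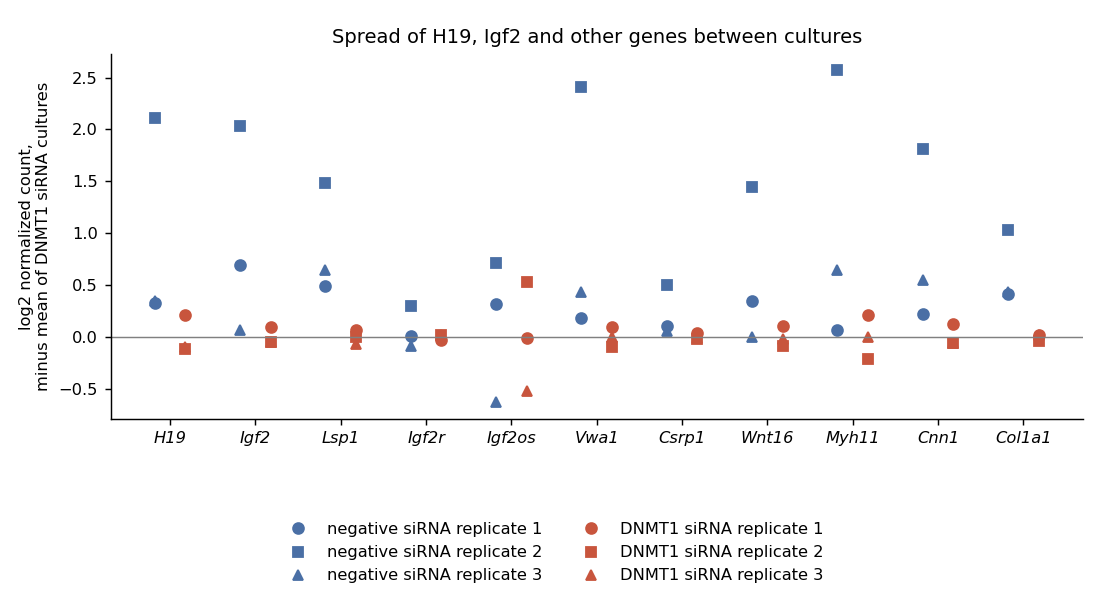
Log2 normalized count of H19, Igf2, 3 further genes of the imprinted regions, 3 genes with a similar profile and 3 marker genes, with the mean of the DNMT1 siRNA cultures subtracted (negative siRNA in blue, DNMT1 siRNA in red, a marker shape for each replicate number). The genes were picked with their values known. The blue square of negative siRNA replicate 2 is the highest point for each of those shown, far above the rest for H19, Igf2, Vwa1 and Myh11 and close to the others for Igf2r and Igf2os.

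Genes next to the imprinted pair were then examined. Of 16 neighbours listed, 9 passed the filter on low counts, and 1 of these was called lower beside 2.23% of all genes. This was Lsp1, an actin-binding protein of white blood cells, with 2160.9, 4306.4 and 2401.3 normalized counts in the control cultures and 1609.1, 1534.9 and 1468.7 after DNMT1 siRNA. Negative siRNA replicate 2 was again the highest, and the groups did not overlap. The change of -0.94 on the log2 scale (SE 0.23; adjusted p = 0.0366) became -0.57 without that culture (adjusted p = 0.00123), within the fold limit. Its call was also lost without any single DNMT1 siRNA culture, with adjusted p of up to 0.142. The other 8, Mrpl23, Igf2os, Tnnt3, Prr33, Syt8, Ctsd, Tspan32 and Cd81, were not called, with log2 fold changes between -0.52 and 1.17. Both extremes came from genes with few reads, Tnnt3 with 5 to 24 a library and Tspan32 with 10 to 21 (edgeR adjusted p = 0.343 and 0.0971). Igf2os, which is antisense to Igf2 and shares 98 exon bases with it, had 55.4, 73.1 and 28.8 and then 44.3, 64.1 and 31.1, and without stated strand handling reads on shared bases cannot be assigned. Around Igf2r, 0 of 5 tested neighbours were called by edgeR, with 1 at an unadjusted p below 0.05, beside 29.2% of all genes.

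Of the wider IGF and insulin pathway, 52 of 59 listed genes were tested, and 2 were called higher and 2 lower, beside 4.26% and 2.23% of all genes. Their median log2 fold change was -0.08. The insulin receptor gene Insr differed by 0.13 on the log2 scale (adjusted p = 0.412), and the insulin gene Ins2 was listed at 0 reads in every library. None of the 19 kinases and kinase subunits was called, with log2 fold changes between -0.43 and 0.29, while 2 of them passed the p limit upward and 3 downward, beside 6.81% and 5.65% of all genes.

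Of the 23 tested adaptors, brakes and other factors, 1 was called higher and 2 lower, beside 4.26% and 2.23% of all genes. Their median log2 fold change was -0.018. Among the brakes on growth factor signalling, Socs2, a feedback inhibitor of growth hormone and IGF signalling, had 709.6, 1114.0 and 861.6 normalized counts in the control cultures and 254.8, 244.9 and 237.1 after DNMT1 siRNA. The groups were widely separated, and Socs2 fell to 27.4% of its control mean (log2 fold change -1.86, SE 0.16, adjusted p = 0.000837). This call held under all 14 alternatives. Eif4ebp1, a repressor of cap-dependent translation downstream of mTOR, had 2539.6, 3803.2 and 3031.2 and then 1846.5, 1733.1 and 1821.9 (log2 fold change -0.80, adjusted p = 0.00913). It was also lower in every DNMT1 siRNA culture, but its call was lost without DNMT1 siRNA replicate 2 (adjusted p = 0.0617).

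Pappa, a protease that cleaves IGFBP4 and IGFBP5 and so frees IGF, had 3347.8, 4860.7 and 4584.1 normalized counts in the control cultures and 6824.0, 6754.6 and 7469.3 after DNMT1 siRNA. All DNMT1 siRNA values were higher (log2 fold change 0.72, SE 0.13, adjusted p = 0.0130). Leaving out negative siRNA replicate 1 or any DNMT1 siRNA culture ended the call, and over the 6 fits with a culture left out the log2 fold change was 0.57 to 0.82 and the adjusted p 0.00234 to 0.0685. Its relative Pappa2, named after its values were seen, had 2668.0, 7465.8 and 2776.9 and then 6602.8, 5963.2 and 7075.1, so that negative siRNA replicate 2 alone was at the level of the DNMT1 siRNA cultures. The difference on the log2 scale was 0.61 (adjusted p = 0.304) with all cultures and 1.27 (adjusted p = 7.36e-05) without that culture, where Pappa2 was called higher. Stc1 and Stc2, inhibitors of these proteases, were also highest in negative siRNA replicate 2, at 729.3 and 966.5, and neither was called.

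Grb14, an adaptor that inhibits the insulin receptor, had 106.8, 154.4 and 100.3 and then 215.9, 202.6 and 173.4 normalized counts (log2 fold change 0.71, adjusted p = 0.0470). The groups did not overlap, but of the 6 fits with a culture left out only the one without negative siRNA replicate 2 kept the call, and the adjusted p reached 0.172.

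**Figure D5:**
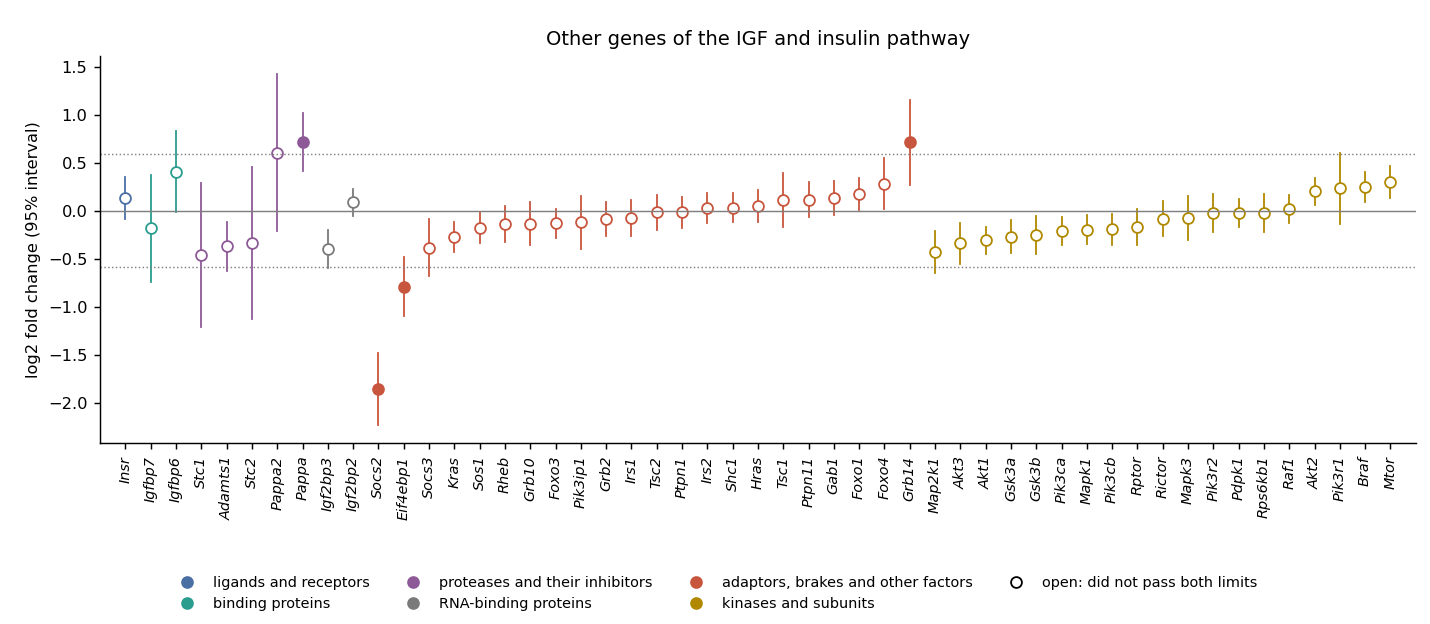
Log2 fold change (DNMT1 siRNA against negative siRNA, points) with 95% intervals (bars) for the tested genes of the wider pathway (1 gene not shown), coloured by role group, with filled points past both limits and dotted lines at a fold change of 1.5. Socs2 at -1.86 lies far from the rest, and the 19 kinases and subunits lie between -0.43 and 0.29.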

How the data were processed

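RNA-Seq data of 6 cultures (3 negative siRNA and 3 DNMT1 siRNA) were used. Per the labels and methods, the authors sequenced poly(A) libraries in single runs of 75 cycles, mapped the reads to mm10 with TopHat2 and counted them per gene with HTSeq on Ensembl GRCm38 release 79, and the deposited values are raw read counts per gene. Tool versions and strand handling are not given in the sources used here. Rows for reads outside exons, ambiguous or otherwise not counted stayed out of library sizes (14.6 to 32.0% and 3.58 to 6.35% of uniquely mapped reads for the first 2 kinds).

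Genes were filtered with filterByExpr (minimum count 10, minimum total 15), scaled by TMM and tested with edgeR 4.0.16 in R 4.3.3 (quasi-likelihood test, Benjamini-Hochberg over 15470 genes). For normalized counts, each count was divided by the effective size of its library over the geometric mean of the 6 effective sizes. Log2 levels are log2 CPM with a prior count of 2. Positions and exon lengths are from GENCODE M21 (GRCm38), where 42462 of 43629 genes matched. The genes and lists were chosen with earlier results of these data known. Named genes are the 10 of the system, Dnmt1, the called genes of each list (at most 8), tested neighbours of H19 and Igf2, and the 5 most similar genes (mean log2 CPM above 1). Other genes of these lists were named after their values were seen, and 1 pathway gene is counted but not reported here. Further lists held imprinting factors, fetal growth genes and cell type markers. The alternatives were DESeq2 1.42.0, edgeR's exact test, other scalings, filters and limits, a replicate block and leaving out each culture. The scripts were tested on simulated data with 200 changed genes. No library was a duplicate of another of its own group (chi-square per degree of freedom 2.89 to 59.7), and pairs across groups were not checked.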

Additional observations from a re-analysis of the deposited data

Results flagged for a closer look

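Reads that the counter did not give to a gene differed between the groups. Reads outside annotated exons made up 16.4 ± 1.58% (SD, n = 3) of uniquely mapped reads after negative siRNA and 29.3 ± 4.23% (SD, n = 3) after DNMT1 siRNA, above the control level in each of the 3 cultures. Reads on exons of more than 1 gene made up 3.62 ± 0.03% and 6.15 ± 0.18% (SD, n = 3 each), again without overlap. For each share the exact permutation test gave p = 0.1, the smallest that 3 against 3 samples allow. They were noted because they lie outside the counts used for the comparisons, and their part in the values of H19 and of the other genes was not tested.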

How the results depend on the processing

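Igfbp5 was called under every alternative run. The difference of the log2 ratio of H19 to Igf2 was -0.18 to 0.14 when 1 culture was left out, and its exact test cannot pass 0.05 at these sample numbers. The number of genes of the system called higher was 2 with no fold limit and 1 to 2 when 1 culture was left out (2 without negative siRNA replicate 3). The number called lower was 1 with the exact test (Igf2, adjusted p = 0.0391), 2 with no filter (H19 and Igf2) and 0 to 1 when 1 culture was left out. Shrunken DESeq2 log2 fold changes were -0.28 for H19 and -0.32 for Igf2. Without the filter 31775 genes were tested, the prior degrees of freedom of edgeR became infinite, so that a gene's own spread did not enter, 1695 genes were called instead of 1004, and the median log2 fold change of all genes was 0.11. For the wider pathway, 1 gene was called higher with shrunken DESeq2 fold changes, 5 with no fold limit and 0 to 3 with 1 culture left out, and 7 were called lower with no fold limit and 1 to 2 with 1 culture left out. For neighbours of H19 and Igf2, 1 was called higher with the exact test and 0 to 1 with 1 culture left out, and 0 were called lower with shrunken fold changes and 0 to 1 with 1 culture left out. The sign turned when 1 culture was left out for Igf1 (log2 fold changes of -0.40 to 0.089, above 0 without negative siRNA replicate 1), for Igf2r (-0.16 to 0.042, above 0 without negative siRNA replicate 2) and for Igfbp3 (-0.11 to 0.12, below 0 at -0.11 without negative siRNA replicate 2 and at -0.05 without DNMT1 siRNA replicate 1). The cause of these changes was not tested.

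Same-numbered cultures did not deviate together (correlations of 0.006, -0.021 and 0.027), so the replicate number was not taken as a pairing. With a replicate block, Igfbp4 no longer passed the p limit (adjusted p = 0.0868), 1 gene of the system was called higher and 0 lower, 1 pathway gene was called higher and 2 lower, 0 neighbours were called higher and 1 lower, and the difference of the H19 to Igf2 ratio was 0.0024. Over all genes the block left 513 called higher and 285 lower.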

Other observations

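The factors that maintain imprints and the fetal growth genes that accompany Igf2 were described as further lists. Of 13 imprinting factors, 12 were tested, and Dnmt1, the target of the siRNA, was the only one called, 1 of 12 beside 2.23% of all genes called lower. By unadjusted p of edgeR's quasi-likelihood test, 7 of 12 were below 0.05, beside 29.2% of all genes. Of these, Dnmt3a, Zfp57, Zfp445 and Tet1 were higher and Dnmt1, Trim28 and Tet3 lower. Trim28, a corepressor at imprinted regions, passed the p limit alone at -0.28 on the log2 scale (adjusted p = 0.0284). Ctcf, which binds the H19-Igf2 control region, differed by -0.09 on the log2 scale (adjusted p = 0.496), and Plagl1, a transcription factor that acts on this locus, by -0.23 (adjusted p = 0.235).

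Of 6 fetal growth genes, 5 were tested and 1 was called lower, beside 2.23% of all genes. Hmga1, a chromatin protein of dividing fetal cells, had 740.5, 716.9 and 424.6 normalized counts in the control cultures and 284.3, 290.1 and 332.0 after DNMT1 siRNA. The groups did not overlap, and the log2 fold change was -1.06 (SE 0.20, adjusted p = 0.0160), but the call was lost without any single DNMT1 siRNA culture, with an adjusted p of up to 0.0877. Its relative Hmga2 differed by 0.14 on the log2 scale (adjusted p = 0.588). The smooth muscle markers had 1 of 6 and the macrophage markers 1 of 6 called lower, beside 2.23% of all genes, and over the alternatives these counts ranged from 0 to 3 and from 0 to 4. Of the erythroid markers, 6 of 7 did not pass the filter on low counts, with Hba-a2 at 0 reads in every library.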
